A study of Homo sapiens with 10 samples.

Results

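The genes described here are 9 components of the insulin and insulin-like growth factor (IGF) system, namely the binding protein genes IGFBP1, IGFBP2, IGFBP3 and IGFBP4, the ligand gene IGF2, the receptor genes IGF1R and INSR, and the receptor substrate genes IRS1 and IRS2. They were taken from the 32738 genes of the count table by gene symbol, and each symbol matched 1 row. HepG2, a human hepatoma line, was grown in high-glucose medium with fetal bovine serum and was either kept in regular medium as the untreated control or given tunicamycin (2 µg/ml) over 17 h. Tunicamycin blocks N-linked glycosylation of proteins and thereby stresses the endoplasmic reticulum (ER). Each condition had 5 libraries, and the series describes 5 experiments performed on different days. Libraries with the same replicate number were taken as the same experiment, which no label states outright, and each comparison within an experiment given here rests on that reading. The serum carries insulin and IGFs of its own, the control is described as medium alone, and all libraries come from a single tumour-derived line, which limits the system as a model of hepatocytes.

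IGF1 and IGF2 act through the IGF1 receptor, and IGF2 also through the insulin receptor. Outside the cell, the binding proteins hold the ligands and set how much of them reaches a receptor. IGFBP1 is made mainly by the liver, where insulin represses its gene and fasting and cellular stress raise it. Inside the cell, both receptors phosphorylate the substrates IRS1 and IRS2, which recruit PI3 kinase and thereby activate AKT, mTOR complex 1 and the restraint of FOXO transcription factors.

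The measurements were counts of 3′ RNA sequencing, in which a transcript gives about a single fragment whatever its length, so that levels of different genes are compared here without scaling by length. Whether different transcripts are captured and counted equally well was not tested. Library totals were 4242538 to 4888292 counts in untreated cells and 2234682 to 5029864 counts in tunicamycin-treated cells, with tunicamycin replicate 5 the shallowest. Mitochondrial transcripts took 18.3% to 28.8% of the counts, the highest share being that of tunicamycin replicate 4. All 7 hepatocyte markers were expressed. ALB was at 11214 and 11519 normalized counts on average in untreated and treated cells, and AFP ranged from 4138 to 16911 among untreated libraries. APOB, APOA1 and TTR fell by 0.78, 0.91 and 1.02 on the log2 scale without overlap (edgeR adjusted p = 2.42e-05, 8.92e-08 and 5.38e-08), whereas ALB, AFP, SERPINA1 and HNF4A did not pass the test. Of the immune markers, PTPRC was at 0 in every library, while CD68, a lysosomal protein of macrophages that other cells also make, was present in all and fell from 27.8 to 15.6 normalized counts on average (log2 fold change -0.83, edgeR adjusted p = 0.0319). The part of these shifts in the results on the 9 genes was not tested. The endothelial, fibroblast and biliary markers CDH5, COL1A1, COL3A1 and KRT7 were at 0 in untreated cells and had at most 24.7 normalized counts with tunicamycin (CDH5 in replicate 4). HSPA5, the ER chaperone BiP that reports ER stress, rose by 2.97 on the log2 scale (SE, the standard error, 0.08; adjusted p = 1.36e-14 by the edgeR quasi-likelihood F-test). HERPUD1, SDF2L1, DDIT3 and ASNS, further ER stress genes, rose by 2.78, 1.71, 1.42 and 1.23 without overlap between conditions. Their SEs were 0.11, 0.10, 0.11 and 0.16, with adjusted p-values of at most 7.95e-06 by the same test. The ER stress gene ATF4 did not pass that test (log2 fold change -0.03, SE 0.10, adjusted p = 0.823). This value is of its mRNA only. By immunoblot of other HepG2 samples, given a slightly higher dose, the study reports that tunicamycin raised the ATF4 protein. DNAJB9 also rose and is described below. Normalized counts are counts divided by the TMM-scaled library size and put back on the scale of the mean library. In bulk RNA, a change in the number of expressing cells and a change in RNA per cell cannot be told apart.

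Of the 9 genes, 6 passed the filter on low counts. The members were selected on their counts in tunicamycin-treated against untreated cells, so their differences are given as a description, with the SE of the fit and no p-value. In the fit across all genes, 34.2% of 12733 tested genes had an edgeR adjusted p below 0.05, and 3 of the 6 members did (IGFBP1, IGF2 and IGF1R). The libraries of the conditions did not overlap for IGFBP1 and IGF2, a separation found for 23.5% of all tested genes. Nothing about the members is read from these shares.

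IGFBP1 (ENSG00000146678) was the member with by far the largest difference. It occupies bases 45888360 to 45893660 of chromosome 7 (GRCh38, plus strand), and no exon of another annotated gene overlaps its own. The 5 untreated libraries held 129, 126, 178, 121 and 133 normalized counts in replicates 1 to 5. The tunicamycin libraries held 2566, 2523, 2406, 1830 and 2363 normalized counts in the same order. Every tunicamycin library thus lay more than 10 times above the highest untreated library. The means were 137 ± 23 and 2338 ± 296 normalized counts (n = 5 each, SD), at a log2 fold change of 4.09 (SE 0.13) or 17-fold. Scaled by library total alone (CPM), IGFBP1 went from 28.8 to 41.8 CPM in untreated cells to between 373 and 604 CPM with tunicamycin. The log2 ratio within the 5 experiments was 4.31, 4.32, 3.76, 3.91 and 4.14. By log2 fold change, IGFBP1 ranked 13 among all tested genes and 7 among the 9707 averaging 20 or more normalized counts.

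**Figure D1:**
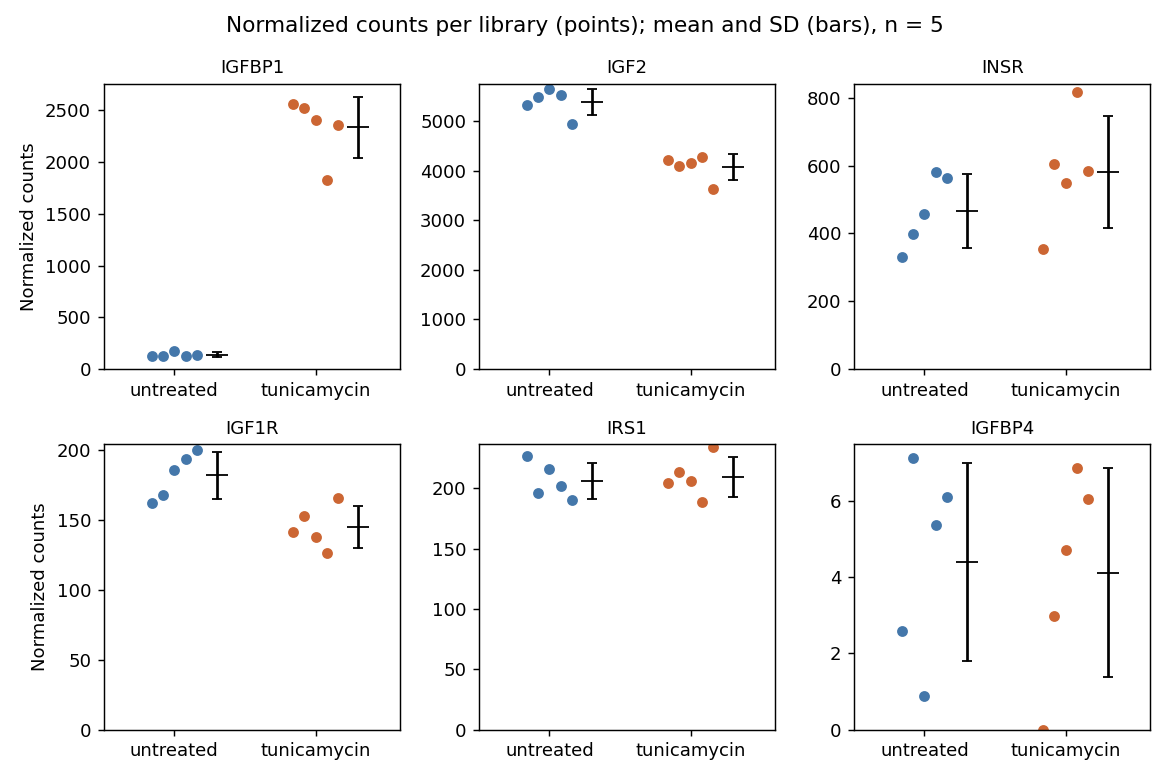
Normalized counts of 6 genes in each library (points, left to right replicates 1 to 5) for untreated and tunicamycin-treated HepG2 cells, with the mean and SD of 5 libraries beside them; each vertical axis starts at 0 and has its own range. IGFBP1 separates the conditions completely, from at most 178 to at least 1830 normalized counts, and IGF2 separates them with a smaller difference, while INSR, IGF1R, IRS1 and IGFBP4 overlap.

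The genes whose response over the 5 experiments was closest to that of IGFBP1 were sought among 9702 other genes averaging 20 or more normalized counts, by the root mean square difference of the 5 log2 ratios. They were DNAJB9 (0.47), an ER co-chaperone, GTPBP2 (0.71), a GTPase of ribosome rescue, MEI1 (0.75), a gene of meiotic recombination, MANF (0.87), an ER-resident stress protein, and LARP6 (1.07), an RNA-binding protein of collagen mRNAs. These genes were matched on the contrast itself, so the likeness is a description of 5 experiments. DNAJB9 went from 13.4 ± 6.89 to 183 ± 48.7 normalized counts (n = 5 each, SD), at a log2 fold change of 3.76 (SE 0.27). MANF went from 591 ± 165 to 5447 ± 1083 normalized counts, a log2 fold change of 3.20 (SE 0.19). GTPBP2 went from 13.9 ± 11.5 to 266 ± 147 (log2 fold change 4.23, SE 0.50). MEI1 went from 5.49 ± 1.97 to 75.6 ± 14.7 (3.75, SE 0.25) and LARP6 from 7.41 ± 3.83 to 71.2 ± 11.4 (3.29, SE 0.26). All but MANF were thus low in untreated cells.

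The other binding protein genes gave little or no signal. IGFBP4 (ENSG00000141753), whose product is a circulating inhibitor of IGF action, had 40 counts over all 10 libraries. Its normalized counts were 2.58, 7.13, 0.87, 5.38 and 6.10 in untreated replicates 1 to 5 and 0, 2.98, 4.72, 6.87 and 6.05 in the tunicamycin replicates. The conditions overlapped fully, and the log2 fold change of -0.23 had an SE of 0.65. IGFBP2 (ENSG00000115457) had 1 count, in tunicamycin replicate 2. IGFBP3 (ENSG00000146674) had 0 counts in all libraries, although on chromosome 7 it lies next to IGFBP1, 18585 bases away on the opposite strand. A count of 0 allows up to 3 counts in a library, which is 0.596 CPM in the deepest library and 1.34 CPM in the shallowest, for counting error only. These genes are called listed at 0 and not absent, because EEF1G, a subunit of the translation elongation factor complex that cells generally need, was also at 0 in all 10 libraries. EEF1G was chosen for this check after its value was seen. Taking these zeros as they stand in the table, IGFBP1 held, of the counts on the 4 binding protein genes, 96.7% ± 2 in untreated cells and 99.8% ± 0.137 with tunicamycin (SD, n = 5 each).

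IGF2 (ENSG00000167244), the fetal growth factor that hepatoma cells often express, was the most abundant member. It occupies bases 2129112 to 2158391 of chromosome 11 (GRCh38, minus strand). It had 5329, 5484, 5637, 5518 and 4946 normalized counts in the untreated experiments 1 to 5 and ranked 62 among tested genes by untreated level. With tunicamycin it had 4208, 4086, 4155, 4275 and 3620 normalized counts. All tunicamycin libraries lay below all untreated ones, and the size of the difference was much alike among the experiments, with log2 ratios from -0.45 to -0.34. The means were 5383 ± 268 and 4069 ± 260 normalized counts (n = 5 each, SD), at a log2 fold change of -0.40 (SE 0.08). Exons of the read-through gene INS-IGF2 on the same strand and of IGF2-AS on the opposite strand overlap those of IGF2. INS-IGF2 had 1 count and IGF2-AS had 37 counts over all libraries, while 2 further unnamed genes that overlap on the same strand were not analysed here, and whether counting used the strand is not given in the sources used here.

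Because both are counted in the same library, IGF2 and IGFBP1 can be set against each other without any scaling between libraries. In untreated cells there were 41.3, 43.6, 31.7, 45.6 and 37.1 IGF2 counts for each IGFBP1 count in replicates 1 to 5. With tunicamycin there were 1.64, 1.62, 1.73, 2.34 and 1.53. In counts, the transcript of the binding protein thus went from a small minority beside that of the ligand to the same order of magnitude. The ligand kept the higher count in every library.

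The receptor genes differed little, with log2 fold changes of opposite sign and with overlap between the conditions for both. IGF1R (ENSG00000140443), the receptor tyrosine kinase for IGF1 and IGF2, occupies bases 98648539 to 98964530 of chromosome 15 (GRCh38, plus strand). Its normalized counts were 162, 168, 185, 194 and 200.2 in untreated replicates 1 to 5 and 141, 153, 138, 126 and 165 in the tunicamycin replicates. Tunicamycin replicate 5 lay above the lowest untreated library, so the conditions overlapped, but within each of the 5 experiments the treated library was the lower. The log2 fold change was -0.33 (SE 0.11). IGF1R no longer passed the threshold without untreated replicate 3, 4 or 5 or tunicamycin replicate 3 or 4 (log2 fold change -0.32 to -0.29). This is a description, as the members were selected on this contrast.

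INSR (ENSG00000171105), the insulin receptor gene, occupies bases 7112255 to 7294414 of chromosome 19 (GRCh38, minus strand). Its normalized counts were 329, 397, 457, 582 and 564 in untreated replicates 1 to 5 and 353, 603, 548, 817 and 583 in the tunicamycin replicates. The libraries of a condition thus spread widely, and replicate 1 was the lowest in both. Within each of the 5 experiments the tunicamycin library was the higher, with log2 ratios of 0.10, 0.60, 0.26, 0.49 and 0.05. The log2 fold change was 0.31 with an SE of 0.18 in the fit without a replicate block. With the block it was 0.31 with an SE of 0.09, and the block rests on reading equal replicate numbers as a shared experiment. Without the block, it was 0.45 without tunicamycin replicate 1 and 0.17 without tunicamycin replicate 4. In counts of the same library, INSR exceeded IGF1R by 2.03 to 3.01 times in untreated cells and by 2.5 to 6.47 times with tunicamycin, the highest ratio being that of replicate 4.

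Of the receptor substrates, IRS1 (ENSG00000169047) was measured well and was nearly level. It had 226, 196, 216, 202 and 190 normalized counts in the untreated experiments 1 to 5 and 204, 213, 206, 188 and 234 with tunicamycin. The ranges overlapped almost fully, and the treated library was the higher in 2 experiments and the lower in 3. The log2 fold change of 0.02 had an SE of 0.10. IRS2 (ENSG00000185950), a main substrate of insulin signalling in the liver, was listed at 0 in all 10 libraries, with the same limit of 3 counts per library.

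**Figure D2:**
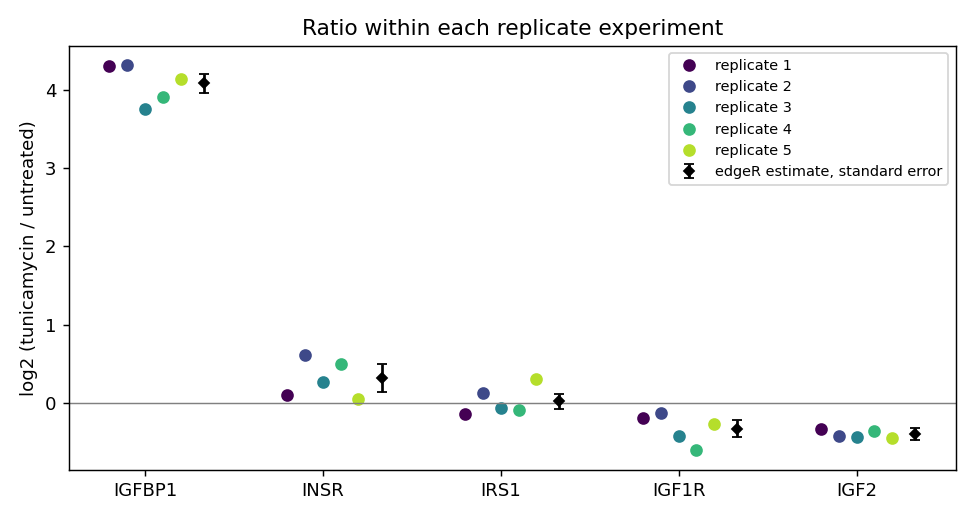
Log2 ratio of tunicamycin to untreated normalized counts within each of the 5 replicate experiments (colored points) and the edgeR estimate with its standard error (black) for 5 genes; the grey line marks no difference. IGFBP1 lies between 3.76 and 4.32, IGF2 and IGF1R are below 0 in each experiment, INSR is above 0 in each, and IRS1 lies on both sides.

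Reference promoters, from 250 bases before to 50 bases after a gene start in RefSeq on GRCh38.p14, were available for 7 of the 9 genes, namely all but IGFBP1 and IGF2. They were searched on both strands for the insulin response sequence TGTTTTG, at which FOXO factors bind, for the AP-1 site TGAGTCA, for the C/EBP-ATF composite site TGATGNAAT, for the UPR element core TGACGTGG and for the ER stress element of chaperone promoters. The only match among them was that of the insulin response sequence in the promoter of IRS2, a gene known for its repression by insulin, and it is shown for that reason, with the matching bases in capitals, 5′ to 3′ on the minus strand (chr13:109786605-109786634):
IRS2: gagtcacatgtTGTTTTGctcttcttagtt
The match starts 40 bases before the gene start. TGTTTTG occurred in 4.92% of 35116 promoters, TGAGTCA in 4.95%, TGATGNAAT in 0.991%, TGACGTGG in 0.729% and the ER stress element in 0.0769%. A match describes the letters of this window, and with IRS2 at 0 no level goes with it.

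The order of the levels changed with treatment. In untreated cells it ran from IGF2 at 5383 normalized counts through INSR at 466, IRS1 at 206 and IGF1R at 182 to IGFBP1 at 137 and IGFBP4 at 4.41. Across the untreated libraries the ranges of IRS1 and IGF1R overlapped, as did those of IGF1R and IGFBP1. Within a library, IGF1R lay above IGFBP1 in every untreated replicate, and IRS1 lay above IGF1R in all but replicate 5. With tunicamycin IGFBP1 at 2338 normalized counts followed directly after IGF2 at 4069, and INSR at 581, IRS1 at 209 and IGF1R at 145 came after it. No neighbours among these 5 overlapped in the tunicamycin libraries.

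A further 94 genes of insulin and IGF signalling were listed by role, of which 73 were abundant enough to be tested. With edgeR's adjusted p below 0.05, 13 rose and 8 fell, where 17.6% of all tested genes rose and 16.6% fell. The share of the 73 genes that differed, 28.8%, was below the 34.2% of all tested genes, and their median log2 fold change was -0.03 against 0.00 for all tested genes. With library size as the only scaling, 11 rose and 11 fell, and 40.8% of all differing genes were higher in place of 51.4%. Changes of more than 2-fold were found for 4 genes upward and 1 downward, against 5.09% and 3.65% of all tested genes.

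Among ligands and extracellular regulators, 3 of 12 genes were tested, and 1 rose. This was IDE, the protease that degrades insulin, with a log2 fold change of 0.41 (SE 0.15, adjusted p = 0.0428). The treated library was the higher in 4 of the 5 experiments. IDE lost its call without untreated replicate 2, 3, 4 or 5 or tunicamycin replicate 2, 3 or 5, at adjusted p-values reaching 0.142, and with library size only (0.114). STC2, a stanniocalcin that inhibits the protease freeing IGF from IGFBP4, had 749 ± 110 and 746 ± 56.8 normalized counts (SD, n = 5 each) and a log2 fold change of 0.00 (SE 0.10, adjusted p = 0.987). IGF1 had 5.03 ± 1.29 and 1.55 ± 1.96 normalized counts (adjusted p = 0.0758), and INS, the insulin gene, was listed at 0.

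Among 13 tested genes of receptors and receptor processing, 3 rose and 1 fell. IGF2R, the mannose 6-phosphate receptor that carries IGF2 to lysosomes, had 275, 345, 427, 569 and 380 normalized counts in the untreated experiments 1 to 5 and 513, 967, 869, 1157 and 1075 with tunicamycin. Untreated replicate 4 exceeded tunicamycin replicate 1, but the treated library was the higher in each of the 5 experiments. Its log2 fold change was 1.19 (SE 0.19, adjusted p = 7.26e-05). GRB10, an adaptor that restrains both receptors, rose by 0.72 on the log2 scale (SE 0.13, adjusted p = 2.77e-04) without overlap between conditions. SH2B1, an adaptor that strengthens insulin receptor signalling, fell by 0.71 (SE 0.13, adjusted p = 2.46e-04), also without overlap. The remaining call was SOCS2, a suppressor of growth hormone signalling with 1.70 and 6.28 normalized counts on average, named after its values were seen. PTPN1, the phosphatase of the insulin receptor, and FURIN, which cleaves the receptor precursors, had adjusted p-values of 0.449 and 0.641.

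Of 16 tested adaptor and PI3 kinase genes, 2 rose and 3 fell. GRB2, which links the receptors to RAS, and PIK3CB, a catalytic subunit of PI3 kinase, rose by 0.49 and 0.59 on the log2 scale (SEs 0.09 and 0.14, adjusted p = 5.57e-04 and 0.00332). GAB1, a docking protein, fell by 0.80, INPP5D, a lipid phosphatase that opposes PI3 kinase, by 0.58, and DOK4, a docking protein, by 0.51 (SEs 0.25, 0.12 and 0.12). Their adjusted p-values were 0.0175, 9.43e-04 and 0.00286. After thinning all libraries to the smallest total, GAB1 was at -0.53 and no longer passed (adjusted p = 0.158), nor did PIK3CB (0.0976). The other listed catalytic and regulatory PI3 kinase genes did not pass the test, PIK3R2 by the upper of its rows only.

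The module around AKT had 3 genes that rose and 2 that fell among 10 tested. AKT1 had 51.6, 86.5, 147, 163 and 176 normalized counts in the untreated experiments 1 to 5 and 170, 216, 264, 346 and 393 with tunicamycin. Untreated replicate 5 exceeded tunicamycin replicate 1, but the treated library was the higher in each of the 5 experiments. The log2 fold change of AKT1 was 1.14 (SE 0.26, adjusted p = 0.00224), and an annotated gene overlaps its exons on the opposite strand. AKT2, the isoform that prevails in liver, fell by 0.34 (SE 0.09, adjusted p = 0.00735). PHLPP1, a phosphatase that switches AKT off, fell from 122 ± 10.5 to 49.1 ± 11.6 normalized counts (n = 5 each, SD), at a log2 fold change of -1.30 (SE 0.16, adjusted p = 3.14e-06). TRIB3, a pseudokinase induced by ER stress that binds AKT, rose from 469 ± 27.8 to 817 ± 59.2 (log2 fold change 0.80, SE 0.08, adjusted p = 5.27e-07), and TRIB1 rose by 0.52 (SE 0.12, adjusted p = 0.00224).

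Of 18 tested genes of the mTOR complexes and their inhibitors, 3 rose and 0 fell. EIF4EBP1, a translation repressor that mTOR complex 1 inactivates, rose from 80.5 ± 14.3 to 249 ± 18.6 normalized counts (n = 5 each, SD), at a log2 fold change of 1.62 (SE 0.12, adjusted p = 1.02e-08). RHEB, the GTPase that activates mTOR complex 1, rose by 0.74 and MAPKAP1, a subunit of mTOR complex 2, by 0.32 (SEs 0.18 and 0.09, adjusted p = 0.00364 and 0.0102). DDIT4 and SESN2, stress-induced inhibitors of mTOR complex 1, had log2 fold changes of 0.09 and 0.00 and adjusted p-values of 0.611 and 0.979.

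Among FOXO factors and insulin-controlled liver genes, 10 of 16 were tested, of which 1 rose and 1 fell. TXNIP, a thioredoxin-binding protein that lowers glucose uptake, rose by 0.83 on the log2 scale (SE 0.11, adjusted p = 5.78e-06). FOXO3 fell by 0.32 (SE 0.12, adjusted p = 0.0463), and this call was lost in 8 of 10 fits that left out 1 library, all but those without untreated replicate 3 and without tunicamycin replicate 1, with adjusted p-values of up to 0.135. FOXO1, the factor that drives IGFBP1 in liver, had a log2 fold change of -0.25 (SE 0.13, adjusted p = 0.146). PCK1, which like IGFBP1 is a FOXO1 target, had 1.78 and 2.75 normalized counts on average (adjusted p = 0.544), and G6PC was too low to be tested. The part of FOXO factors in the IGFBP1 difference was not tested. Of the 3 genes named for binding IGF2 mRNA, IGF2BP1 fell by 0.38 (SE 0.09, adjusted p = 0.00308), while IGF2BP2 and IGF2BP3 had log2 fold changes of -0.17 and -0.08 and adjusted p-values of 0.109 and 0.615.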

How the data were processed

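RNA of 5 untreated and 5 tunicamycin-treated HepG2 samples was sequenced from 3′ ends (Lexogen QuantSeq). The authors processed the reads with the nf-core RNA-Seq pipeline at its defaults on hg19 with Ensembl transcripts and deposited raw counts per gene, without normalization or filter. Beyond these defaults, the aligner, counting program and strand setting are not named in the sources used here. All 10 sample columns were used (0 left unused).

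Genes were filtered with filterByExpr (minimum count 2, minimum total 10, as in the study), scaled by TMM and tested by the quasi-likelihood F-test of edgeR (version 4.0.16, under R 4.3.3) with condition as the only term. P-values were adjusted by Benjamini-Hochberg over all tested genes at 0.05. The standard error is the absolute log2 fold change divided by the square root of F. Log2 ratios within experiments used normalized counts plus 0.5. In simulated data with 200 changed genes among 12566 tested, 88% were called, with 11 false calls and 0 in the wrong direction. The measured data had 4353 differing genes among 12733 tested. How the share called depends on the size of a difference was not tested. The 88% is thus not given as the share for differences as small as those of IGF2, IGF1R and INSR. P-values measure the spread between experiments in a single line.

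The series text gives 5 experiments on separate days, and equal replicate numbers were read as a shared experiment. No label ties a number to a day. The deviations of same-numbered libraries from their group means correlated at 0.25, 0.00, 0.03, 0.08 and 0.05 over 11635 genes, so that only the first exceeded 0.1. Alternatives were DESeq2 1.42.0, other scalings and filters, the replicate block, thinning and leaving out each library. The members and gene lists were chosen with earlier results of these data known. Named pathway genes are the up to 5 largest changes per list with an adjusted p under 0.05 and at least 20 normalized counts on average, and others are given as background values. The symbol PIK3R2 has more than 1 row, of which the upper was used. The marker PECAM1 was not analysed here. Positions are from GENCODE on GRCh38, matched by Ensembl identifier. Besides AKT1, exons of other annotated genes overlap those of the named pathway genes SH2B1, INPP5D, DOK4, MAPKAP1 and IGF2BP1 on the opposite strand. For IGF2R such an overlap is on the same strand. The effect of these overlaps on the counts was not tested.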

Additional observations from a re-analysis of the deposited data

Results flagged for a closer look

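By Dixon's criterion at 95%, 5 of 53 groups of 5 normalized counts (members and named pathway genes) held a value apart from the rest, where chance flags about 1 in 20, or 2.65. IGFBP1 had 178 normalized counts in untreated replicate 3, against 121 to 133 in the others, and 1830 in tunicamycin replicate 4, against 2363 to 2566. IGFBP2 had 0.992 in tunicamycin replicate 2, a single count, against 0 in the others. IGF2 had 3620 in tunicamycin replicate 5, the shallowest library, against 4086 to 4275. TRIB1 had 143 in tunicamycin replicate 4, which had the largest share of mitochondrial counts, against 192 to 202. Whether depth or the mitochondrial share bears on these values was not tested.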

How the results depend on the processing

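Over 19 alternatives, the number of differing genes ran from 3766 to 4811, that of pathway genes that rose from 11 to 14 and that of pathway genes that fell from 7 to 11. The log2 fold change of IGFBP1 stayed between 4.01 and 4.20, and that of IGF2 between -0.49 and -0.36. With library size as the only scaling IGF2 moved to -0.49, while the median log2 fold change of all genes moved from 0.00 to -0.08. With the replicate block, 14 pathway genes rose, 10 fell and 4811 genes differed, and all 20 named pathway genes kept their call. In edgeR with this block, INSR was the only member whose call changed. INSR also passed in DESeq2 with the block and in the fit without tunicamycin replicate 1. These calls are a description, as the members were selected on this contrast. IGF1R had an adjusted p above 0.05 in DESeq2 with the block and without untreated replicate 3, 4 or 5 or tunicamycin replicate 3 or 4. Of the 20 named pathway genes, 15 kept their call throughout. The exceptions were IDE and FOXO3, also lost in DESeq2 with the block (FOXO3 in DESeq2 without it, with no filter and after thinning too), GAB1 and PIK3CB after thinning to the smallest library (adjusted p = 0.158 and 0.0976) and MAPKAP1 with library size only (0.0584). No direction reversed among the named pathway genes. IGFBP4 rests on 40 counts in all, and the source of the zeros of IGFBP2, IGFBP3 and IRS2 was not tested.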

Other observations

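INSR, IGF2R and AKT1 each had their lowest value of a condition in replicate 1, both untreated and with tunicamycin (INSR 329 and 353, IGF2R 275 and 513, AKT1 51.6 and 170 normalized counts). This was noticed after the values were seen, and it was not particular to these genes. Replicate 1 was the lowest in both conditions for 9 of 61 pathway genes, for 5 of 15 marker and ER stress genes, ALB and AFP among them, and for 12.6% of the 9707 tested genes averaging 20 or more normalized counts. For the other replicates this share was 2.73% to 5.43%. In counts of the same library, AKT2 exceeded AKT1 by 25.6, 14.5, 7.23, 6.01 and 6.42 times in untreated replicates 1 to 5 and by 5.12, 4.06, 3.75, 2.60 and 2.31 times in the tunicamycin replicates, so that the conditions did not overlap. This pair was also chosen after its values were seen.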
